A study of Mus musculus with 10 samples.

Results

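The TGF-β superfamily is represented here by 10 genes, chosen by name as ligands and receptors of the TGF-β, BMP and activin branches, of 55487 genes in the count tables. They are the ligand genes *Tgfb1*, *Tgfb2*, *Tgfb3*, *Bmp2*, *Bmp4*, *Bmp7* and *Inhba* and the TGF-β receptor genes *Tgfbr1*, *Tgfbr2* and *Tgfbr3*. All 10 passed the filter on low counts in both cell types (over 1 CPM, that is, counts scaled to the size of the library, in at least 2 libraries). RNA levels were measured by low-input RNA sequencing in mammary epithelial cells (MECs), purified by removal of cells that carry markers of other lineages, and in mammary macrophages, selected with antibody to F4/80. The mice were 10-wk-old BALB/c females in diestrus, and every mouse carried *Cebpb* fl/fl, the floxed gene of the transcription factor C/EBPβ. WT mice were negative for *Csf1r-Cre* and *Cebpb*ΔM mice were positive for it, which the labels call C/EBPb knockdown. The Cre is driven by *Csf1r* and so acts in CSF1R-expressing myeloid cells, not in the epithelium by design. There were 2 WT libraries (numbers 1 and 3) and 2 *Cebpb*ΔM libraries (1 and 3) of MECs, and 2 WT (4 and 5) and 4 *Cebpb*ΔM libraries (4 to 7) of macrophages.

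Ligands of this family are secreted dimers that assemble type I and type II serine/threonine kinase receptors. Receptors for TGF-β and activin signal through SMAD2 and SMAD3, and receptors for BMPs through SMAD1, SMAD5 and SMAD9, with SMAD4 as the shared partner. TGF-β proteins are made in a latent form that has to be activated outside the cell, and secreted antagonists such as follistatin and decorin hold ligands back. In the mammary gland TGF-β is best known as a brake on ductal growth.

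Total counts ranged from 25310926 to 27008166 for MECs and from 16935000 to 20174722 for macrophages, and 3 counts, taken as the floor, were at most 0.177 CPM in any library. *Cebpb*, the targeted gene, which shares 20.7% of its exon bases with *Tmem189* on the opposite strand, was hardly read in either cell type. In macrophages it had 13 and 15 counts in the WT libraries and 16, 13, 5 and 4 in the *Cebpb*ΔM libraries, so the genotypes overlapped and directions by genotype in macrophages rest on the labels. In MECs it had 25 and 28 counts in WT and 69 and 42 in *Cebpb*ΔM (adjusted *P* = 0.890, edgeR quasi-likelihood [QL] test). The summed level of 14 macrophage markers was 8924 to 17164 CPM in the macrophage libraries and 232 to 409.9 CPM in MECs, where *Adgre1*, the gene of F4/80, had 0 to 13 counts. The macrophage libraries also carried other cells' RNA. Their 14 luminal markers summed to 6095 to 11578 CPM, against 31347 to 39016 CPM in MECs, and their 10 basal markers to 842 to 3424 CPM, against 6518 to 8229 CPM. Their 8 endothelial markers summed to 1199 to 2560 CPM, against 116 to 165 CPM in MECs, and their 8 fibroblast markers to 2819 to 7134 CPM, against 2412 to 5278 CPM. No list was at 0 as a whole: only *Ly6g*, a neutrophil marker, had 0 counts in all 6 macrophage libraries. In tissue isolates of this kind, fewer cells of a type and less RNA per cell cannot be told apart.

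The stretches before the start sites of 4 of these genes are shown because the genes stand on opposite sides of the comparison of cell types described further on: *Inhba* and *Tgfb2* were lower in macrophages, *Tgfb1* and *Tgfbr2* higher. Each is the 250 bases upstream of the RefSeq start (GRCm38.p6), 5′ to 3′ on the gene's strand. Capitals mark the letters a TATA box (letters TATAAA) and a form of the sequence that C/EBP proteins bind (letters TTGCNNAA), each searched on both strands.
*Inhba*, chr13:16011601-16011850, plus strand: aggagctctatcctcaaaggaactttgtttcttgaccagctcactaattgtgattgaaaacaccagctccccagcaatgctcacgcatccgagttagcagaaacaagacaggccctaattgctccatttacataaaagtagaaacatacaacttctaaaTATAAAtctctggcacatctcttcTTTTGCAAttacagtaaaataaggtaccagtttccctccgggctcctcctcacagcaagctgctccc
*Tgfb2*, chr1:186705990-186706239, minus strand: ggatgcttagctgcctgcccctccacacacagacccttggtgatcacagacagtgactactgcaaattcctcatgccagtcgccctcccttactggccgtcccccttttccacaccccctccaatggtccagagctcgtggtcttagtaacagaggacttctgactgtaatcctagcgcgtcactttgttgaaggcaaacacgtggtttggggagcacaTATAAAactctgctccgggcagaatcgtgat
*Tgfb1*, chr7:25686752-25687001, plus strand: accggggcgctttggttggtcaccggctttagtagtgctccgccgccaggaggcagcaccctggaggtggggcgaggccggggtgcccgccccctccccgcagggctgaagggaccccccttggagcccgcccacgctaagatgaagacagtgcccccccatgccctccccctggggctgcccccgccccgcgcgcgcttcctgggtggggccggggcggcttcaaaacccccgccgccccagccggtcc
*Tgfbr2*, chr9:116175364-116175613, minus strand: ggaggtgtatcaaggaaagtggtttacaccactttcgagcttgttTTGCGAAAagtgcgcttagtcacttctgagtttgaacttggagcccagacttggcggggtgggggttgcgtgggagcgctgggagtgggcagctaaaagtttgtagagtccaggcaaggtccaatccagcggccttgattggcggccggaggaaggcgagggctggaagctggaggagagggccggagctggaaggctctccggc

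The promoter table held 6 of the 10 genes, and *Tgfb3*, *Tgfbr3*, *Bmp2* and *Bmp7* were not among them. The TATA letters stood from 31 to 26 bases before the start of *Tgfb2* and from 91 to 86 bases before that of *Inhba*, and nowhere in the windows of *Tgfb1*, *Tgfbr1*, *Tgfbr2* and *Bmp4*. They occur in 12.4% of 32851 mouse promoter windows of this length. The C/EBP letters stood from 67 to 60 bases before the start of *Inhba* and from 205 to 198 bases before that of *Tgfbr2*, and occur in 9.56% of the windows. *Inhba* and *Tgfb2* held 3 and 8 CG dinucleotides, *Tgfb1*, *Tgfbr2* and *Bmp4* held 21, 12 and 11, and the windows at the 2 starts of *Tgfbr1* held 29 and 3 (the median window holds 6). These matches describe letters and not bound sites.

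To place the genes beside each other, levels were expressed per length (fragments per kilobase of exon scaled to library size, FPKM, on a common scale for all 10 libraries). In WT MECs *Tgfb3* had the highest level of the 10 genes, at 62.8 ± 5.8 FPKM (SD, n = 2). It was followed by *Tgfbr2*, the type II receptor of TGF-β, at 14.9 ± 1.9 FPKM and *Tgfbr3*, the co-receptor betaglycan, at 14.2 ± 2.5 FPKM, whose ranges overlapped. *Tgfb2* (8.79 ± 0.20 FPKM) and *Bmp7* (6.55 ± 0.59 FPKM) came next, apart from each other. *Tgfbr1*, the type I receptor, at 4.41 ± 0.74 FPKM, and *Inhba*, which encodes the βA subunit of activin A, at 3.97 ± 1.23 FPKM, overlapped. The low end was held by *Bmp4* (2.34 ± 0.12 FPKM), *Bmp2* (1.06 ± 0.10 FPKM) and *Tgfb1* (0.595 ± 0.229 FPKM), each apart from the next.

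In WT macrophages *Tgfb3* again had the highest level, at 42.6 ± 1.2 FPKM (n = 2). *Tgfbr3* (30.5 ± 2.7 FPKM) and *Tgfbr2* (27.3 ± 3.8 FPKM) followed and overlapped. *Bmp4* was at 6.66 ± 0.34 FPKM, above *Tgfbr1* at 4.93 ± 0.51 FPKM. *Bmp2* (3.79 ± 0.76 FPKM) and *Bmp7* (3.61 ± 0.55 FPKM) overlapped, and *Tgfb2* (2.79 ± 0.09 FPKM) and *Tgfb1* (2.12 ± 0.46 FPKM) stood below them. *Inhba* was lowest, at 0.306 FPKM in both libraries. Among the ligands, then, *Tgfb1* took the bottom place in WT MEC libraries and *Inhba* in WT macrophage libraries, while *Tgfb3* held the top in both. The WT macrophage libraries also held luminal markers at 11435 and 11578 CPM and fibroblast markers at 5691 and 5909 CPM. The part of such cells in these levels was not tested.

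**Figure D1:**
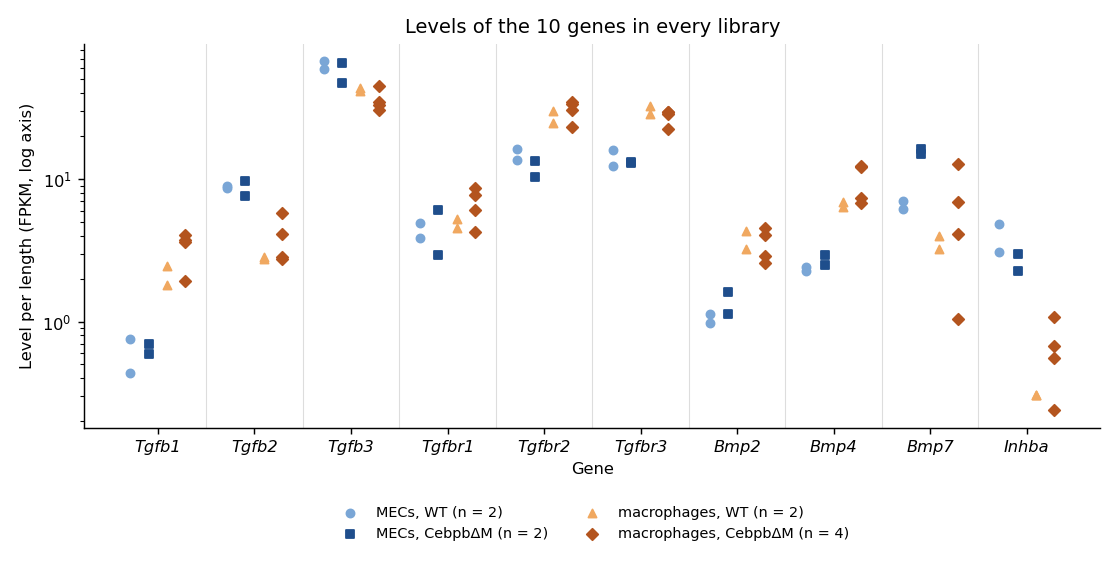
Level per length (FPKM, log axis) of each gene in every library, as 1 point a library, with MECs in blue (WT circles, *Cebpb*ΔM squares) and macrophages in orange and brown (WT triangles, *Cebpb*ΔM diamonds). *Tgfb3* lies highest in each group, and *Bmp7* in *Cebpb*ΔM macrophages spreads from 1.04 to 12.7 FPKM.

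*Cebpb*ΔM MECs had a rearranged order in the middle of this list. *Tgfb3* stayed highest, at 55.9 ± 12.7 FPKM (n = 2), but *Bmp7* was next, at 15.6 ± 0.9 FPKM, above *Tgfbr3* (13.1 ± 0.1 FPKM) and *Tgfbr2* (11.9 ± 2.2 FPKM). *Tgfb1* was again lowest, at 0.641 ± 0.074 FPKM. In *Cebpb*ΔM macrophages *Tgfb3* (35.8 ± 6.4 FPKM, n = 4) overlapped with *Tgfbr2* (30.6 ± 5.3 FPKM), and only *Tgfbr3* (27.5 ± 3.5 FPKM) from *Bmp4* (9.67 ± 3.003 FPKM) and *Tgfb1* (3.33 ± 0.95 FPKM) from *Inhba* (0.636 ± 0.347 FPKM) were neighbors that stood apart. The order in every group was the same in TPM, which scales a library to the sum of its levels per length. This is no check of the order, because both measures divide the same counts by the same lengths and rescale whole libraries.

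The study asked whether deletion of *Cebpb* in macrophages changes the epithelium beside them, so the ligands and receptors were compared between genotypes in MECs. *Bmp7*, a BMP ligand, showed the largest difference of the 10 genes. It was at 26.3 and 23.5 CPM in the WT libraries and at 61.7 and 58.9 CPM in the *Cebpb*ΔM libraries. Both *Cebpb*ΔM values thus lay well above both WT values, and libraries of a genotype differed by less than 3 CPM. The difference was 2.42-fold (log2 fold change 1.28, SE 0.21), and *Bmp7* ranked 20 of 15689 genes by *P* (9.89e-05), but its adjusted *P* of 0.0734 in the QL test missed 0.05. The call depended on the test and on the libraries of the fit. The adjusted *P* was 0.000171 with the likelihood ratio test, the test of the study's methods, and 0.000151 with DESeq2. With the QL test and all 10 libraries in a fit it was above 0.999. The log2 fold change there was 1.255, with a larger SE (0.742) that takes in the spread of the macrophage libraries. In MECs the summed levels of 8 of the 9 marker lists overlapped between the genotypes, those of luminal, basal and macrophage markers among them. The sum of the 6 dendritic cell markers did not, at 2.83 and 3.45 CPM in WT and 5.08 and 5.98 CPM in *Cebpb*ΔM. Most of that sum was *Zbtb46*, at 2.06 to 5.44 CPM over the MEC libraries. Each other marker of the list was at most 0.405 CPM there, and 1 of the 6 passed the filter. Of single markers, named after their values were seen, *Csf1r* was at 10.2 and 8.77 CPM in WT and at 17.2 and 19.5 CPM in *Cebpb*ΔM. Of the 6 macrophage markers tested, however, 2 lay above 0 on the log2 scale and 4 below. *Adgre1* had 13 and 2 counts in WT and 0 in each *Cebpb*ΔM library. *Epcam*, a gene of epithelial cells, was at 955 and 1836 CPM in WT and at 2956 and 1942 CPM in *Cebpb*ΔM. Of the 14 luminal markers 7 lay above 0 and 7 below. The part of these cell types in the *Bmp7* difference was not tested.

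*Inhba* went the other way. It was at 18.6 and 29.6 CPM in WT and at 18.01 and 14.1 CPM in *Cebpb*ΔM, so WT 1 and *Cebpb*ΔM 1 lay close together although the genotypes did not overlap. The log2 fold change was −0.59 (SE 0.29, adjusted *P* = 0.9997). *Bmp2* was at 3.76 and 3.34 CPM in WT and at 5.45 and 3.91 CPM in *Cebpb*ΔM (log2 fold change 0.40, SE 0.35), and *Bmp4* at 5.13 and 4.85 CPM in WT and at 6.26 and 5.50 CPM in *Cebpb*ΔM (0.24, SE 0.31). For these BMP ligands the groups did not overlap either, at adjusted *P* = 0.9997 each.

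The TGF-β ligands and receptors overlapped between the genotypes in MECs. *Tgfb1* was at 2.05 and 3.65 CPM in WT and at 2.80 and 3.41 CPM in *Cebpb*ΔM, and *Tgfb2* at 47.0 and 49.4 CPM and at 41.8 and 55.05 CPM. *Tgfb3* was at 213 and 190 CPM in WT and at 207 and 155 CPM in *Cebpb*ΔM. The sign of the *Tgfb2* difference (log2 fold change 0.0049, SE 0.22) turned with relative log expression (RLE) normalization, to −0.0014. Of the receptors, *Tgfbr2* had the largest difference, from 125 and 106 CPM in WT to 79.7 and 107 CPM in *Cebpb*ΔM (log2 fold change −0.30, SE 0.22, adjusted *P* = 0.9997). *Tgfbr1* was at 23.9 and 30.8 CPM in WT and at 18.01 and 38.6 CPM in *Cebpb*ΔM, and *Tgfbr3* at 97.9 and 77.4 CPM and at 80.3 and 84.0 CPM.

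In all, 0 of the 10 genes passed the QL test between genotypes in MECs, where 0.051% of all genes tested did, and 1, *Bmp7*, had an unadjusted *P* under 0.05, against 5.42% of all genes. The likelihood ratio test and DESeq2 each called 1 of the 10, *Bmp7*, where they called 1.14% and 1.03% of all genes. The groups did not overlap for 4 of the 10 genes, against 28.7% of all genes. The median log2 fold change was 0.03 over the 10 genes and −0.01 over all 15689 genes. With 2 libraries against 2, an exact permutation test of a single gene cannot go below *P* = 0.333. Nothing in the labels says how many mice each library holds, so the *P*-values measure the spread between these libraries.

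**Figure D2:**
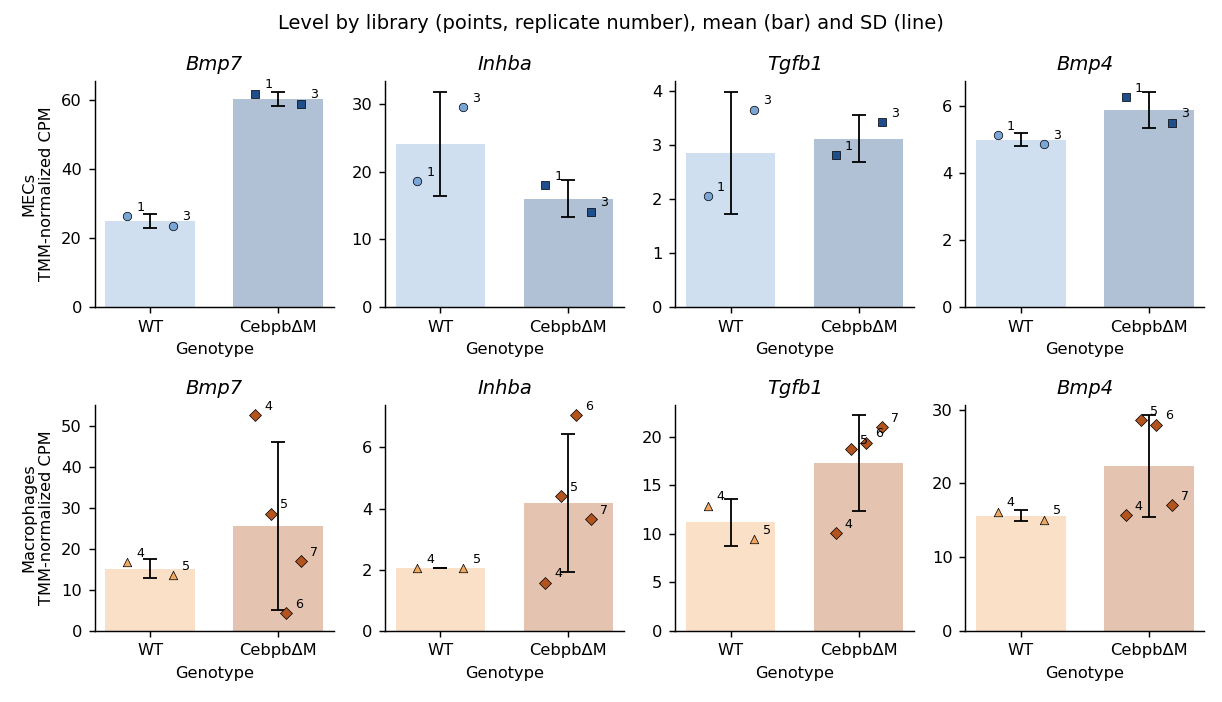
Normalized level (CPM) of *Bmp7*, *Inhba*, *Tgfb1* and *Bmp4* in MECs (top row) and macrophages (bottom row). Points are libraries with their replicate number, bars are means and lines the SD (2 libraries a group, 4 for *Cebpb*ΔM macrophages). *Bmp7* in MECs stands at 58.9 and 61.7 CPM in *Cebpb*ΔM and at 23.5 and 26.3 CPM in WT, whereas in macrophages the genotypes overlap for each of the 4 genes.

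In macrophages, where the deletion is driven, no ligand or receptor passed the test between genotypes, and libraries of *Cebpb*ΔM spread widely for *Bmp7* and *Inhba*. *Bmp7* was at 16.8 and 13.5 CPM in the WT libraries and at 52.4, 28.5, 4.27 and 17.01 CPM in *Cebpb*ΔM 4, 5, 6 and 7. The *Cebpb*ΔM values thus ran from below both WT libraries to far above them. The log2 fold change was 0.76 (SE 0.77, adjusted *P* = 0.848, QL test), and without *Cebpb*ΔM 4 it was 0.13. Markers of basal epithelium summed to 3424, 2231, 2194 and 842 CPM in *Cebpb*ΔM 4 to 7 and to 1399 and 956 CPM in WT. Markers of luminal epithelium summed to 7261, 6095, 6315 and 8354 CPM in *Cebpb*ΔM 4 to 7 and to 11435 and 11578 CPM in WT. The part of epithelial RNA in the spread of *Bmp7* between these libraries was not tested. With the mean level of luminal and basal markers together as a covariate the log2 fold change of *Bmp7* was 0.32. Between genotypes 12 of 14 luminal markers lay below 0 and 10 of 10 basal markers above 0, so this covariate cannot separate them.

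*Inhba* was at 2.04 CPM in both WT libraries and at 1.57, 4.41, 7.04 and 3.65 CPM in *Cebpb*ΔM 4 to 7, that is, above WT in 3 of 4 libraries. Its log2 fold change was 1.03 (SE 0.61, adjusted *P* = 0.688), on 30 to 127 counts a library. *Tgfb1* was at 12.9 and 9.46 CPM in WT and at 10.05, 18.7, 19.4 and 21.0 CPM in *Cebpb*ΔM (log2 fold change 0.63, SE 0.34, adjusted *P* = 0.652). *Cebpb*ΔM 4 fell between the WT values and the other 3 lay above them. *Bmp4* was at 16.2 and 15.1 CPM in WT and at 15.7, 28.6, 28.0 and 17.01 CPM in *Cebpb*ΔM (log2 fold change 0.51, SE 0.31, adjusted *P* = 0.696).

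*Tgfb2* in macrophages was at 17.3 and 16.5 CPM in WT and at 34.3, 24.4, 16.7 and 16.5 CPM in *Cebpb*ΔM (log2 fold change 0.44, SE 0.33), with *Cebpb*ΔM 4 and 5 highest as for *Bmp7*. *Tgfb3* was at 153 and 148 CPM in WT and at 157, 121, 114 and 106 CPM in *Cebpb*ΔM (−0.27, SE 0.19), and *Bmp2* at 12.04 and 16.1 CPM and at 9.42, 10.6, 16.5 and 14.9 CPM (−0.13, SE 0.31). These 3 ligands overlapped between the genotypes, and so did the receptors. *Tgfbr1* was at 36.1 and 31.2 CPM in WT and at 58.0, 52.1, 40.6 and 28.5 CPM in *Cebpb*ΔM (0.41, SE 0.29). *Tgfbr2* was at 211 and 257 CPM in WT and at 195, 257, 293 and 286 CPM in *Cebpb*ΔM (0.14, SE 0.20), and *Tgfbr3* at 195 and 222 CPM and at 192, 200.4, 197 and 150.4 CPM (−0.17, SE 0.17). Adjusted *P* was at least 0.737 for these 6 genes.

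By count, 0 of the 10 genes passed the QL test in macrophages, where 0% of 17772 genes did, and 0 had an unadjusted *P* under 0.05, against 8.63% of all genes (1534 genes). The likelihood ratio test called 138 genes (0.777%) and DESeq2 201 genes (1.13%), with 0 of the 10 among them. The groups overlapped for each of the 10, whereas 18.7% of all genes did not overlap. The median log2 fold change was 0.43 over the 10 genes and 0.00 over all genes. Marker sums of 4 of the 9 cell type lists did not overlap between the genotypes. Macrophage markers summed to 11762 to 17164 CPM in *Cebpb*ΔM and to 8924 and 10385 CPM in WT, with 14 of 14 above 0 on the log2 scale, and luminal markers to 6095 to 8354 CPM in *Cebpb*ΔM and to 11435 and 11578 CPM in WT. Dendritic cell markers summed to 93.6 to 148 CPM in *Cebpb*ΔM and to 58.3 and 77.2 CPM in WT, and lymphocyte markers to 13.4 to 25.7 CPM and to 10.14 and 10.985 CPM. The covariate held luminal and basal markers only, and the part of the other lists in the levels of the ligands and receptors was not tested.

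**Figure D3:**
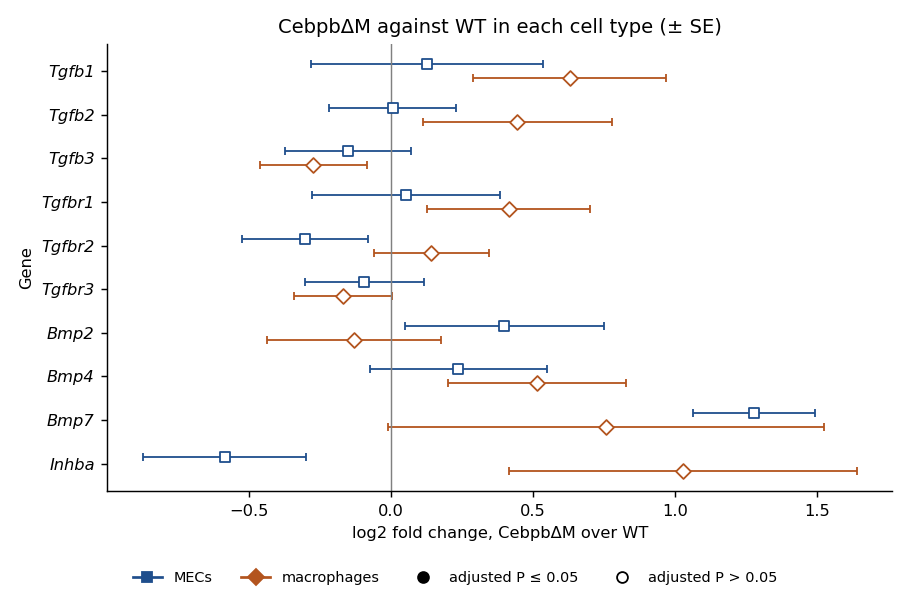
Log2 fold change of *Cebpb*ΔM over WT for each gene, with its SE, in MECs (blue squares) and macrophages (brown diamonds). Open symbols mark an adjusted *P* above 0.05 in the QL test, which holds for every gene in both cell types, and *Inhba* lies at −0.59 in MECs and 1.03 in macrophages.

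Whether genotype acted differently in MECs and macrophages was tested in a fit of all 10 libraries. *Inhba* had the largest difference of effects of the 10 genes (macrophages minus MECs, log2 1.65, SE 0.71, adjusted *P* = 0.945). For *Bmp7* the difference was −0.48 (SE 0.97), at an adjusted *P* above 0.999. Of the 10 genes, 0 passed the QL test, where 0% of 18321 genes did, and 1, *Inhba*, had an unadjusted *P* under 0.05, against 5.19% of all genes. The likelihood ratio test called 53 genes (0.289%) and DESeq2 28 genes (0.153%), with 0 of the 10 among them.

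The question of which cell type holds which ligand and receptor was taken up next. In WT libraries *Tgfb1*, *Bmp2*, *Bmp4*, *Tgfbr2* and *Tgfbr3* were higher in macrophages than in MECs, and *Inhba* and *Tgfb2* were lower. These are 7 of 10 genes, where 25.4% of 18321 genes passed the QL test (14.8% higher and 10.7% lower). Of the called genes 58.0% were higher in macrophages, and 71.2% when libraries were scaled by their totals alone, a scaling under which the 10 genes kept their directions. Cell type went together with the isolation and the experiment, so these cannot be told apart. Markers of endothelium passed the test as higher in macrophage libraries for 8 of 8 genes. So did markers of fibroblasts for 4 of 8, of adipocytes for 4 of 6 tested and of dendritic cells for 6 of 6, with 0 lower. Markers of luminal epithelium passed as lower for 7 of 14 and of basal epithelium for 5 of 10, with 0 higher. The part of such cells in the differences below was not tested.

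*Inhba* had the largest difference, from 3.10 and 4.84 FPKM in WT MECs to 0.306 and 0.305 FPKM in WT macrophages, or 13.0-fold lower (log2 fold change −3.70, SE 0.58, adjusted *P* = 0.000981). *Tgfb2* was at 8.65 and 8.94 FPKM in MECs and at 2.86 and 2.73 FPKM in macrophages, 3.15-fold lower (−1.65, SE 0.34, adjusted *P* = 0.00464). Neither gene's groups came near each other. Both have the TATA letters in the upstream stretches printed above, but only 6 of the 10 genes had such a stretch. Any part of these letters in the differences was not tested.

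*Tgfb1*, the TGF-β ligand best known from immune cells, was at 0.433 and 0.757 FPKM in WT MECs and at 2.45 and 1.79 FPKM in WT macrophages, 3.56-fold higher (log2 fold change 1.83, SE 0.41, adjusted *P* = 0.00803). *Bmp2* was at 1.13 and 0.983 FPKM in MECs and at 3.25 and 4.32 FPKM in macrophages (1.84, SE 0.36, adjusted *P* = 0.00398). *Bmp4* was at 2.43 and 2.26 FPKM and at 6.90 and 6.42 FPKM (1.504, SE 0.34, adjusted *P* = 0.00820). All 3 ligands were thus above both WT MEC libraries in both WT macrophage libraries. Without WT MEC library 1 the calls of *Tgfb1* (adjusted *P* = 0.0780) and *Bmp4* (0.0502) were lost, and that of *Bmp4* also without WT MEC library 3 (0.0669).

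The receptors *Tgfbr3* and *Tgfbr2* were also higher in WT macrophages. *Tgfbr3* was at 15.9 and 12.4 FPKM in WT MECs and at 28.6 and 32.4 FPKM in macrophages (log2 fold change 1.11, SE 0.21, adjusted *P* = 0.00280). *Tgfbr2* was at 16.2 and 13.6 FPKM and at 24.6 and 30.0 FPKM (0.88, SE 0.24, adjusted *P* = 0.0211), a call that was lost without WT MEC library 1 (0.0588) or 3 (0.147) or without WT macrophage library 5 (0.0937). *Tgfbr1*, the type I receptor, overlapped between the cell types, at 3.89 and 4.94 FPKM and at 5.29 and 4.57 FPKM (0.16, SE 0.38, adjusted *P* = 0.795).

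*Tgfb3* and *Bmp7* did not pass the test in WT. *Tgfb3* was at 66.9 and 58.8 FPKM in MECs and at 43.4 and 41.8 FPKM in macrophages (log2 fold change −0.56, SE 0.23, adjusted *P* = 0.0996), with no overlap. DESeq2 called it (adjusted *P* = 0.0430). *Bmp7* was at 6.97 and 6.13 FPKM and at 3.99 and 3.22 FPKM (−0.86, SE 0.74, adjusted *P* = 0.434), with an SE that takes in the spread of the *Cebpb*ΔM macrophages. No overlap was seen for 9 of the 10 genes, against 65.1% of all genes.

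The same comparison in *Cebpb*ΔM libraries gave 8 of 10 genes past the QL test, where 33.7% of 18321 genes passed (19% higher and 14.7% lower). It compares other libraries than the comparison in WT. Both come from 1 fit of all 10 libraries with a shared spread, however, so their tests are not independent. *Tgfb1* was 5.19-fold higher in macrophages (log2 fold change 2.38, SE 0.39), *Bmp4* 3.54-fold (1.83, SE 0.31), *Tgfbr2* 2.58-fold (1.37, SE 0.22), *Bmp2* 2.56-fold (1.36, SE 0.33) and *Tgfbr3* 2.11-fold (1.08, SE 0.19), at adjusted *P* of at most 0.00815. *Inhba* was lower (−2.04, SE 0.43, adjusted *P* = 0.00412), as was *Tgfb2* (−1.17, SE 0.28, adjusted *P* = 0.00739). The median log2 fold change over the 10 genes was 0.52 in WT and 0.83 in *Cebpb*ΔM, against 0.06 and 0.07 over all genes, while the 7 ligands had medians of −0.56 and −0.64 and the 3 receptors of 0.88 and 1.08.

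*Tgfb3* also passed in *Cebpb*ΔM, at 64.9 and 46.9 FPKM in MECs and 30.3 to 45.1 FPKM in macrophages (log2 fold change −0.64, SE 0.19, adjusted *P* = 0.0260). The call was lost without *Cebpb*ΔM MEC library 1 (adjusted *P* = 0.289), without *Cebpb*ΔM macrophage library 5 (0.0618), 6 (0.0583) or 7 (0.0640), and when libraries were scaled by their totals alone (0.0622). Those of *Tgfb2* (0.0716) and *Bmp2* (0.0817) were lost without *Cebpb*ΔM MEC library 3. *Bmp7* was at 16.3 and 15.0 FPKM in MECs and at 12.7, 6.90, 1.04 and 4.11 FPKM in macrophages, below MECs in 4 of 4 libraries (−1.34, SE 0.61, adjusted *P* = 0.119). It passed without *Cebpb*ΔM macrophage library 4 (log2 fold change −1.95, adjusted *P* = 0.0158).

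**Figure D4:**
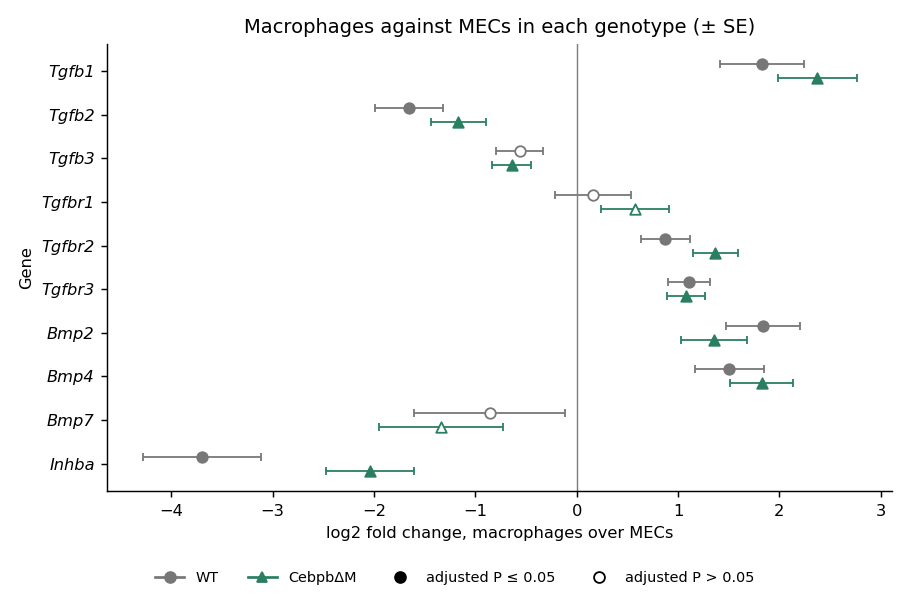
Log2 fold change of macrophages over MECs for each gene, with its SE, in WT (grey circles) and *Cebpb*ΔM (green triangles). Filled symbols mark genes that passed the QL test, 7 genes in WT and 8 in *Cebpb*ΔM, with *Inhba* farthest to the left (−3.70 and −2.04).

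Other genes of the pathway were taken from lists by role: 89 genes in 7 lists, of which 68 were tested in MECs and 72 in macrophages. Between genotypes 0 of them passed the QL test in either cell type. An unadjusted *P* under 0.05 was found for 8 of 68 in MECs and 6 of 72 in macrophages, against 5.42% and 8.63% of all genes. The median log2 fold change over these genes was 0.06 in MECs and −0.09 in macrophages.

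Secreted and membrane inhibitors, which hold ligands or receptors back, held 10 of 12 tested genes above 0 in *Cebpb*ΔM MECs. Of all 15689 genes tested 7630 lay above 0. This was the most one-sided of the 7 lists by that count. Of the 12 genes 3 had an unadjusted *P* under 0.05, against 5.42% of all genes, and the median was 0.21. *Nbl1*, a secreted BMP antagonist, had the smallest *P* of the 68 genes (log2 fold change 2.01, SE 0.39, adjusted *P* = 0.104). It was at 11.1 and 11.5 CPM in WT and at 66.5 and 24.8 CPM in *Cebpb*ΔM, so that most of the difference came from *Cebpb*ΔM 1. *Dcn*, the proteoglycan decorin, which binds TGF-β, had the highest level per length of the list in WT of both cell types (223 and 317 FPKM on average). In MECs it was at 1220.2 and 1243 CPM in WT and at 2776 and 2006 CPM in *Cebpb*ΔM (0.96, SE 0.25, adjusted *P* = 0.267). The other gene of the 3, named after its values were seen, was *Fst*, follistatin, which binds activins (0.81, SE 0.22, adjusted *P* = 0.271), at 44.8 and 45.8 CPM in WT and at 90.3 and 68.8 CPM in *Cebpb*ΔM. In macrophages the list had a median of 0.30, and *Fstl3*, a follistatin-like gene, had its smallest *P* (0.54, SE 0.26, adjusted *P* = 0.609). Fibroblast markers summed to 2412 to 5278 CPM in MECs and to 2819 to 7134 CPM in macrophages. Between genotypes in MECs 2 of these 8 markers lay above 0 and 6 below (median −0.33). The part of fibroblast RNA in the levels of *Dcn* and the other inhibitors was not tested.

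Among genes of latency and activation, 4 of 13 in MECs and 1 of 13 in macrophages had an unadjusted *P* under 0.05. The shares over all genes were 5.42% and 8.63%. The medians of the list were 0.16 and −0.11. *Mmp14*, a membrane-bound metalloproteinase, was at 45.4 and 52.1 CPM in WT MECs and at 73.2 and 67.6 CPM in *Cebpb*ΔM MECs (log2 fold change 0.53, SE 0.21, adjusted *P* = 0.730). *Bmp1*, a procollagen protease in spite of its name, was at 39.5 and 39.9 CPM in WT macrophages and at 24.7 to 32.9 CPM in *Cebpb*ΔM (−0.45, SE 0.18, adjusted *P* = 0.556). *Nrros*, which anchors latent TGF-β1 on macrophages and microglia, was at 69.5 and 82.5 FPKM in WT macrophages and at 0.0973 to 0.358 FPKM in WT MECs (8.37 against MECs, SE 0.54, adjusted *P* = 2.01e-06). In MECs *Thbs1*, thrombospondin-1, had the highest level of this list, at 170 and 100.4 FPKM in WT.

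The other receptors and co-receptors had medians of −0.08 in MECs and 0.01 in macrophages between genotypes. *Bmpr1b*, a type I BMP receptor, had the smallest *P* in MECs (log2 fold change 1.91, SE 0.70, adjusted *P* = 0.633), but overlapped, at 2.36 and 0.621 CPM in WT and at 2.04 and 9.18 CPM in *Cebpb*ΔM. *Bmpr1a* had it in macrophages, at 35.3 and 35.2 CPM in WT and at 24.3 to 27.3 CPM in *Cebpb*ΔM (−0.44, SE 0.17, adjusted *P* = 0.537). *Eng*, the co-receptor endoglin, an endothelial marker in most tissues, had the highest level in both cell types in WT, at 29.1 and 22.8 FPKM in MECs and at 182 and 210.4 FPKM in macrophages (2.92 against MECs, SE 0.33, adjusted *P* = 0.000112).

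Of the other ligands, 10 of 26 were tested in MECs and 14 of 26 in macrophages, with medians of 0.01 and −0.42 between genotypes. *Gdf9* had the smallest *P* in MECs, at 1.10 and 0.815 CPM in WT and at 1.58 and 2.09 CPM in *Cebpb*ΔM (log2 fold change 0.93, SE 0.47, adjusted *P* = 0.9997). *Bmp8b* had it in macrophages, at 18.7 and 20.5 CPM in WT and at 11.2 to 15.7 CPM in *Cebpb*ΔM (−0.60, SE 0.24, adjusted *P* = 0.555). The ligand with the highest level in WT was *Gdf10* in MECs (15.4 and 7.98 FPKM) and *Gdf15* in macrophages (21.8 and 30.6 FPKM), each of which passed the test between cell types in its direction (−1.49, adjusted *P* = 0.0286, and 2.02, adjusted *P* = 0.0124).

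For the signaling genes downstream the medians in MECs were 0.18 (7 Smads), −0.12 (8 nuclear and ubiquitin regulators) and 0.06 (9 target genes), and 0 genes of these lists had an unadjusted *P* under 0.05 there. In macrophages the medians were 0.06, −0.12 and 0.09, with an unadjusted *P* under 0.05 for 0, 1 and 2 genes. The shares over all genes were 5.42% in MECs and 8.63% in macrophages. *Id2*, a BMP target gene, had the smallest *P* of the target genes in MECs (log2 fold change −0.18, SE 0.20, adjusted *P* = 0.9997), *Smad6*, an inhibitory Smad, of the Smads (0.61, SE 0.47, adjusted *P* = 0.9997) and *Zfyve9*, a Smad anchor, of the regulators (0.49, SE 0.31, adjusted *P* = 0.9997). In macrophages *Tgfbi*, a matrix protein induced by TGF-β, had the smallest *P* of the 72 genes, at 132 and 251 CPM in WT and 363 to 493 CPM in *Cebpb*ΔM (1.14, SE 0.27, adjusted *P* = 0.452). Macrophage markers also summed higher in *Cebpb*ΔM (11762 to 17164 CPM) than in WT (8924 and 10385 CPM), and their part in the *Tgfbi* difference was not tested. *Smad4* was at 34.7 and 34.6 CPM in WT and at 21.4 to 29.5 CPM in *Cebpb*ΔM (−0.42, SE 0.20, adjusted *P* = 0.597), and *Smurf2*, a ubiquitin ligase for receptors, at 67.6 and 53.8 CPM and at 36.6 to 49.7 CPM (−0.46, SE 0.20, adjusted *P* = 0.570).

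Between cell types in WT, 12 of the 73 pathway genes tested passed as higher in macrophages and 11 as lower, where 25.4% of all genes passed in either direction, and in *Cebpb*ΔM 17 passed as higher and 18 as lower, where 33.7% of all genes passed. *Tgif1*, a Smad corepressor, had the highest level of the nuclear regulators in both cell types, and passed as lower in macrophages (145 and 140.2 FPKM in WT MECs, 46.8 and 31.8 FPKM in WT macrophages, adjusted *P* = 0.000481). *Junb* led the target genes in both, with a WT difference of 0.62 (SE 0.22, adjusted *P* = 0.0597). Of the Smads *Smad3*, which transmits TGF-β and activin signals, had the highest level in WT MECs (8.75 and 8.99 FPKM) and *Smad4* in WT macrophages (8.95 and 8.90 FPKM).

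**Figure D5:**
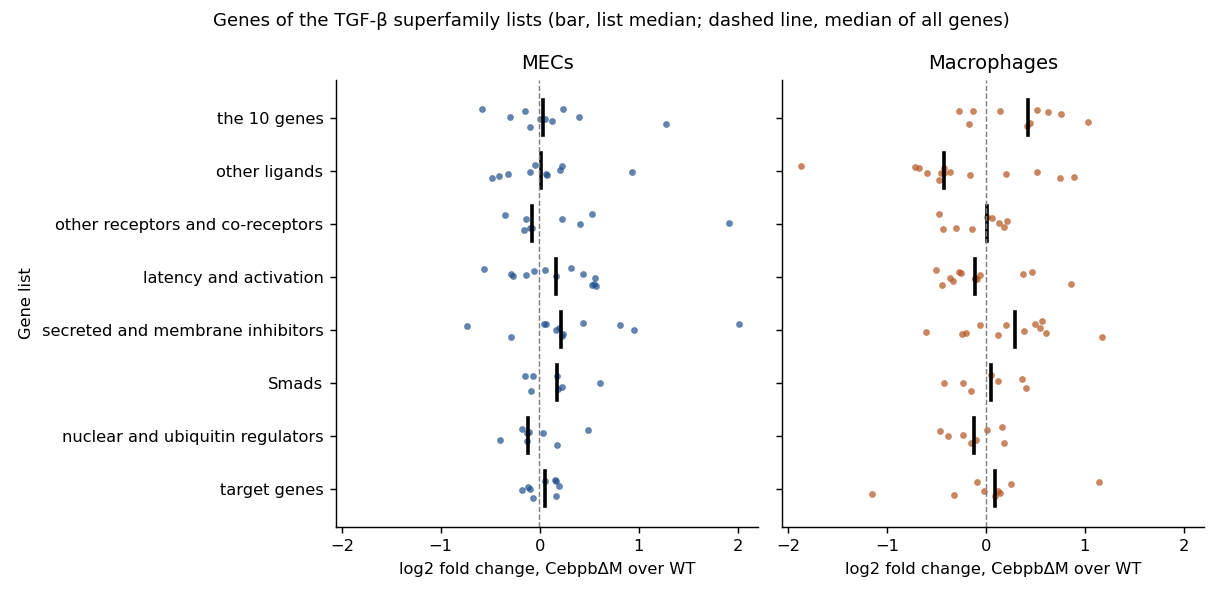
Log2 fold change of *Cebpb*ΔM over WT for the 10 genes and the genes of the 7 pathway lists, 1 point a gene (vertical position within a list is arbitrary), in MECs (left) and macrophages (right). Black bars are list medians and the dashed line is the median of all genes. The inhibitors lie mostly above 0 in MECs (10 of 12, against 7630 of all 15689 genes tested), and the point at 2.01 there is *Nbl1*.

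Finally, the genes whose levels varied most like each of the 10 over the 10 libraries were sought, as Pearson's *r* of log2 CPM among 18321 genes after the mean of each cell type was subtracted. Of 2 genes for each, all had *r* between 0.929 and 0.988, values picked as the highest of many, over libraries that share their experiments. For *Bmp7* they were *Cep78* (0.978) and *Nrtn* (0.966), for *Inhba* *Insc* (0.974) and *Il18bp* (0.970) and for *Tgfb2* *Atp8a2* (0.988) and *Cntn2* (0.970). For *Tgfb3* they were *Zfp651* (0.982) and *Gm37804* (0.960), the latter annotated on the opposite strand over 4.82% of the exon bases of *Tgfb3*, so its reads may not be independent of it. For the others they were *Gpr137b* and *Dnajb14* (*Tgfb1*), *Ankrd28* and *Suco* (*Tgfbr1*), *Sulf1* and *Ppfia2* (*Tgfbr2*), *Acin1* and *Sema5a* (*Tgfbr3*), *Ube2g2* and *Tmem44* (*Bmp2*) and *Jph2* and *Lcmt2* (*Bmp4*). Within the 10 genes the closest pair was *Tgfb2* and *Tgfbr1* (*r* = 0.817), which were both highest in *Cebpb*ΔM 4 and 5 among the macrophage libraries, and the next was *Tgfb1* and *Inhba* (0.749).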

How the data were processed

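RNA of MECs and macrophages was sequenced in 10 libraries. Per the labels, reads were trimmed with Trimmomatic and mapped with HISAT2 to GRCm38 (mm10), and per the file headers the authors counted read pairs with featureCounts (version 1.6.2) on Ensembl release 100, at a mapping quality of at least 10 and with reverse-stranded counting. The deposited values are raw counts per gene, without normalization. A strand-marking kit is not stated in the sources used here, so a gene and an antisense gene over its exons may share reads (*Bmp4*, *Tgfb2* and *Tgfb3*, 2.14 to 7.60% of exon bases). The same holds for *Cebpb* (20.7%, with *Tmem189*, at 3081 counts over all libraries against 230 of *Cebpb*) and *Fstl3* (47.3%, with *Prss57*). *Tgfbr3* shares 4.54% of its exon bases with *Gm43422* on its own strand. Libraries that the MEC header names beyond the columns were not analysed here. Symbols and coordinates are those of GRCm38.

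Genes of 300 nt or more with over 1 CPM in at least 2 libraries of a fit were tested with edgeR's QL test (version 4.0.16, R 4.3.3, TMM normalization), with *P* adjusted over all tested genes by Benjamini–Hochberg and called at 0.05. Genotypes were fitted within each cell type, and the interaction and the cell types over all 10 libraries. CPM are scaled within a cell type for genotypes, and over all libraries for markers and FPKM. Log2 CPM used a prior count of 2. The study's methods name the likelihood ratio test, which was an alternative, beside DESeq2 (version 1.42.0), other normalizations and filters, thinned counts, all libraries in 1 fit, a replicate block, a marker covariate and libraries left out. The tests were checked on simulated counts. Named were the 10 genes, and of each pathway list any gene called between genotypes, the gene with the smallest *P* in each genotype comparison, the gene with the highest level per length in WT of each cell type, and the 2 genes most like each of the 10. The 10 genes and the lists were chosen with earlier results of these data known. Depth is given with the results. Genes of low counts also carry counting error, which for *Inhba* in WT macrophages (39 and 41 counts) is larger than the spread between the libraries. Tables were handled with pandas (version 2.3.3) and plotted with matplotlib (version 3.10.9).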

Additional observations from a re-analysis of the deposited data

Results flagged for a closer look

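*Tgfbr3* in *Cebpb*ΔM macrophages had 1 library far from the others. *Cebpb*ΔM 7 was at 150.4 CPM, whereas the other 3 libraries lay between 192 and 200.4 CPM, a gap of 0.840 of the group's range which is above Dixon's 95% critical value for 4 samples. The group was examined in this way for each of the 10 genes, and chance alone flags about 1 in 20 groups. *Cebpb*ΔM 7 also had the lowest basal marker sum of the *Cebpb*ΔM macrophages (842 CPM) and the highest macrophage marker sum (17164 CPM), and the part of either in the *Tgfbr3* level was not tested.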

How the results depend on the processing

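Between genotypes in MECs, 8 genes passed the QL test, 179 the likelihood ratio test, 161 DESeq2, 67 without a filter, 0 with library totals only and 0 with all 10 libraries in 1 fit, and 5 to 339 with each library left out. Of the 10 genes 1, *Bmp7*, passed with the likelihood ratio test, DESeq2 and no filter, and 0 to 1 with a library left out (it passed without each library but WT 3). In macrophages the likelihood ratio test called 138 genes and DESeq2 201, against 0, and for the interaction 53 and 28, against 0 (0 to 1 with a library left out). Over leave-one-out fits the WT cell type comparison gave 2454 to 4845 genes (lowest without WT MEC 3, then 2731 without WT MEC 1 and 3040 without WT macrophage 5) and 4 to 7 of the 10, and that in *Cebpb*ΔM 3496 to 6554 (lowest without *Cebpb*ΔM MEC 1) and 6 to 9. A lone library left in a group is assumed to vary like the other groups.

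With the replicate number as a block, 206 genes were called in MECs (*Bmp7* among them, adjusted *P* = 0.00122), 12 in macrophages and 1 in the interaction. Same-numbered libraries deviated together only weakly (*r* = 0.106 in MECs and 0.0412 in macrophages) and only 2 numbers are shared per cell type, so the numbers do not establish pairs. The block turned the sign of *Tgfb2* (−0.0081) and *Tgfbr1* (−0.036) in MECs, *Tgfbr2* in macrophages (−0.054) and *Bmp7* (0.13), *Tgfbr3* (0.045) and *Tgfb3* (0.081) in the interaction, and changed no other call of the 10 genes. *Tgfb2* in MECs also turned with DESeq2 and RLE (−0.0014 each) and with all 10 libraries in 1 fit (−0.018), and *Tgfbr2* in macrophages with replicates 4 and 5 only (−0.035).

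Leaving out a library turned further signs, all of values that passed no test: in MECs *Tgfb1* (−0.23 to 0.62), *Tgfb2* (−0.21 to 0.19), *Tgfb3* (−0.38 to 0.040), *Tgfbr1* (−0.60 to 0.50) and *Tgfbr3* (−0.24 to 0.085), in macrophages *Bmp2* (−0.32 to 0.094), in the interaction *Tgfbr1* (−0.017 to 1.04), *Tgfb3* (−0.30 to 0.17) and *Tgfbr3* (−0.22 to 0.14), and between WT cell types *Tgfbr1* (−0.0044 to 0.34). Scaling by library totals moved the median log2 fold change of all genes between WT cell types from 0.06 to 0.24, and the share of calls that were higher in macrophages from 58.0 to 71.2%, without turning a sign or ending a call of the 10 genes there. TPM in place of FPKM left the order of levels in each group as it was, which within a library holds by construction. All 40 levels moved by at least the SD of their FPKM, with the change of unit. *Tgfb3* in WT, for example, was at 62.8 FPKM and 160 TPM in MECs and at 42.6 FPKM and 129 TPM in macrophages. *Inhba* in macrophages and *Tgfb1* in MECs rest on 30 to 127 and 54 to 94 counts a library, which limits what can be told of them.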
